A study of Mus musculus with 8 samples.

Results

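Transcripts of macrophages and microglia were measured by RNA sequencing in choroid plexus taken from E18.5 mouse embryos. The 33 genes described here were taken by name from a fixed list of myeloid genes, and 33 were found among the 23284 genes of the count table. The list was chosen with earlier results of these data known. Shares of the 33 set beside all genes are therefore descriptions and not tests of the list. Hindbrain tissue came from the fourth ventricle and telencephalic tissue from the lateral ventricles of the same brains. Each region was prepared either as sorted epithelial cells, labelled ICR (CD1) and positive for Ttr::RFP, or as whole choroid plexus of the CD1 strain. Ttr::RFP is a red fluorescent reporter named for the transthyretin gene, which the choroid epithelium expresses, so the gate of the sort was set for epithelial cells. Each of the 4 groups (hindbrain sorted, telencephalic sorted, hindbrain whole and telencephalic whole) held 2 libraries described as biological replicates, so n = 2 for every group. The labels do not say whether embryos were pooled. Sorted and whole libraries are not stated to share brains, and only the sorted cells are labelled Ttr::RFP. Sorting therefore cannot be told apart from reporter, strain label or brains. Below, the sort stands for the comparison of sorted with whole libraries.

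Macrophages live on both sides of the choroid epithelium, in its stroma and on its ventricular surface, and differ from the microglia of the brain tissue itself. Both depend on the receptor Csf1r and on the transcription factor PU.1, and both make the C1q proteins that start the classical complement pathway. Border macrophages carry scavenger and lectin receptors such as Mrc1, Lyve1 and Stab1, while microglia are marked by P2ry12, Tmem119 and Siglech. In bulk samples like these, fewer cells of a type and less RNA per cell cannot be told apart.

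The promoters of 4 genes whose sorted-to-whole change differed between the regions are shown as examples. They are the 4 with the smallest adjusted p for that difference among the genes with a promoter in the RefSeq table, build GRCm38.p6. Each window holds 250 bases before and 50 bases after the gene's start, 5′ to 3′ on the gene's strand. Capitals mark the hexamer GAGGAA, a core motif read by PU.1, or its reverse complement TTCCTC.
C1qb, chr4:136886151-136886450, minus strand: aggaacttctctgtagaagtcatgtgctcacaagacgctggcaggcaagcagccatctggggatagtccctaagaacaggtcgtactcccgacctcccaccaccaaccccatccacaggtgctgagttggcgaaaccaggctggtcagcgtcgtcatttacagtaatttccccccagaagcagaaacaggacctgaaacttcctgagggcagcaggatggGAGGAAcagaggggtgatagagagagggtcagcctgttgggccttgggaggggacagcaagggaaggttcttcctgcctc
Stab1, chr14:31168592-31168891, minus strand: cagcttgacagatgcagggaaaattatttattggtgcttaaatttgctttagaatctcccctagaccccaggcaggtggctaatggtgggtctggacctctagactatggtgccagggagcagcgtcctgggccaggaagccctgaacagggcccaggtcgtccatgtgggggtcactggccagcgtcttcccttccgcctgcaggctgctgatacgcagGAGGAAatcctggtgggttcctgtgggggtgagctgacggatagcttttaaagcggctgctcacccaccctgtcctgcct
C1qc, chr4:136892865-136893164, minus strand: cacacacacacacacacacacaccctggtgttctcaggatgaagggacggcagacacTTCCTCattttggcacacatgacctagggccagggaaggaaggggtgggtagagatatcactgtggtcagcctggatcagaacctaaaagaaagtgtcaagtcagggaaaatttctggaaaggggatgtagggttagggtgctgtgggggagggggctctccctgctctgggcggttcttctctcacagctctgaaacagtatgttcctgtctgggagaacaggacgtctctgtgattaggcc
Laptm5, chr4:130913066-130913365, plus strand: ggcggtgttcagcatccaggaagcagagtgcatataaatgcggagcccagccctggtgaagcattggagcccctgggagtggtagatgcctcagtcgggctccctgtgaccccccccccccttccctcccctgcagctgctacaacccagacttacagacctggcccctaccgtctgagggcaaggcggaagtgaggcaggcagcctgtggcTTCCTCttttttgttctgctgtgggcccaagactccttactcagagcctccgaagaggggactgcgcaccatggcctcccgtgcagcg

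The hexamer, read on both strands, was present in the window of 19 of the 25 genes that had one, which is 76.0%. Over all 27025 genes of the table the share was 31.3%. It began 30 bases before the start in both C1qb and Stab1, 38 bases before it in Laptm5 and 193 bases before it in C1qc. Within 50 bases of the start on either side it was present in 16 of the 25 genes (64.0%) and in 13.01% of all genes. A match describes the letters of the window and is not a binding site. Promoters of Tyrobp, Tmem119, Lyve1, Cd14, Csf1r, C1qa, Emr1 and Cd74 were not used here.

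Most macrophage transcripts were lower in sorted cells than in whole tissue of the telencephalic choroid plexus. In hindbrain sorted cells most of them lay near the whole-tissue level. Expression is given in CPM, read counts scaled to a common library size after TMM, a trimmed mean that corrects for library makeup. The summed level of the 33 genes was 391 and 359 CPM in hindbrain sorted cells, 69.2 and 121 CPM in telencephalic sorted cells, 392 and 389 CPM in hindbrain whole tissue, and 298 and 333 CPM in telencephalic whole tissue. Sorted cells thus held 96.0% of the whole-tissue sum in the hindbrain and 30.1% in the telencephalon. Both telencephalic sorted libraries lay below the other 6, and replicate 1 was the lowest of all. Every one of the 33 genes passed the low-count filter. Of these, 24 reached its minimum in all 8 libraries, while H2-Aa did so in 3 libraries and Trem2 and Siglech in 5 each.

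**Figure D1:**
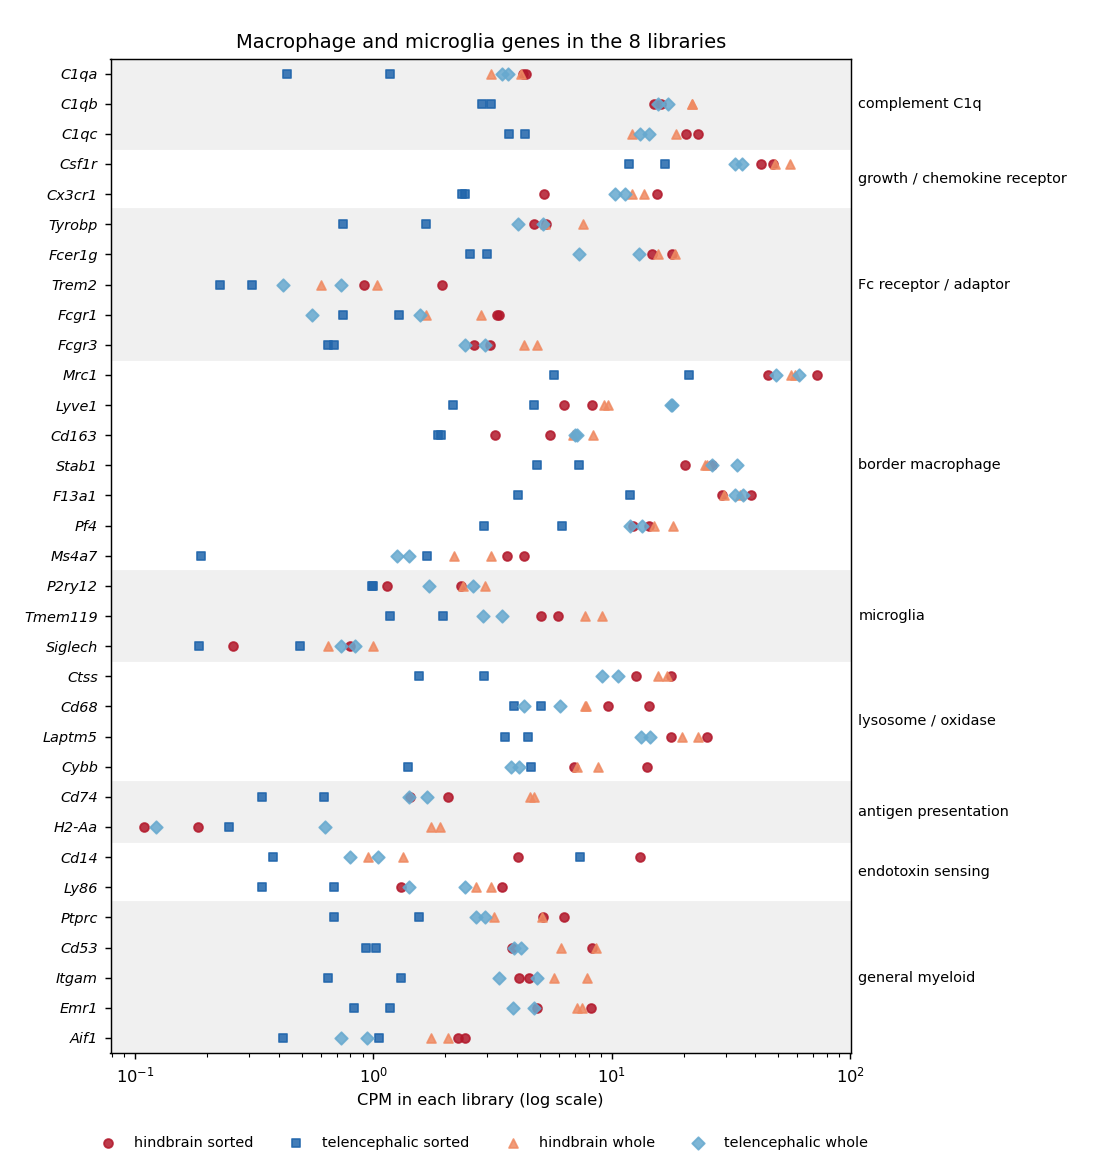
CPM of each of the 33 genes in each library on a log axis, grouped by role, with 2 points per group; H2-Aa was at 0 in telencephalic sorted replicate 1 and has no point there. For most genes the 2 telencephalic sorted libraries (blue squares) lie to the left of the other 6, as in the summed level of 69.2 and 121 CPM against 298 to 392 CPM.

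In the fit across all genes, a gene is called where the p from edgeR's quasi-likelihood test, adjusted by Benjamini-Hochberg, is below 0.05. Sorted minus whole in the telencephalon called 22 of the 33 genes lower, 0 higher and 11 neither way, where 12.5% of all 15698 tested genes were lower and 9.88% higher, 22.4% in all. Sorted libraries lay below whole ones for 26 of the 33 and above them for 0, against 32.6% below and 33.7% above over all genes. Their median log2 fold change was -1.81, against 0.01 over all genes. In the hindbrain the same comparison called 3 genes lower (C1qb, Cd74 and H2-Aa), 1 higher (Cd14) and 29 neither way, against 11.9% lower and 10.2% higher over all genes, 22.1% in all. Sorted libraries lay above whole ones for 8 of the 33 and below them for 11, against 29.8% above and 29.9% below over all genes. The median there was -0.17, against 0.01 over all genes. All 4 hindbrain calls were lost without either hindbrain whole library. Those of C1qb and Cd14 were also lost without either telencephalic whole library or hindbrain sorted replicate 2. The 2 comparisons share no library, but their same-numbered libraries come from the same brains and both use the same fit. By group mean, 27 of the 33 genes fell under 50% of the whole-tissue level in telencephalic sorted cells. In hindbrain sorted cells 2 did so, Cd74 at 37.6% and H2-Aa at 8.03%. H2-Aa passed the filter only through hindbrain whole tissue, so it had to fall there. The share of all genes under 50% was not computed.

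The difference between those effects was tested as the interaction, the sorted-to-whole log2 change in the hindbrain minus that in the telencephalon. It was positive for 32 of the 33 genes, all but H2-Aa, with a median of 1.5 against 0.0038 over all genes. Of all 15698 genes, 7942 had a positive value. The test called 8 of the 33 genes higher and 0 lower, where 1.1% of all genes were called higher and 0.242% lower, 1.34% in all. These were C1qb, C1qc, Fcer1g, Lyve1, Stab1, F13a1, Ctss and Laptm5. With brain as a block C1qa (2.39, adjusted p = 0.0391) and Csf1r (1.06, adjusted p = 0.0237) were called too. Without 1 library the count lay between 3 (without telencephalic whole replicate 2) and 14 (without hindbrain sorted replicate 2). Leaving out telencephalic whole replicate 1 or hindbrain whole replicate 2 gave 4, and leaving out hindbrain whole replicate 1 or telencephalic sorted replicate 1 gave 5. The Fcer1g call was lost without any one of 5 libraries, the Lyve1 and F13a1 calls without any one whole library and 1 sorted library (telencephalic replicate 1 and hindbrain replicate 1 in turn), the Ctss call without any one of 4 libraries, and the Laptm5 call without either telencephalic whole library or telencephalic sorted replicate 1.

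**Figure D2:**
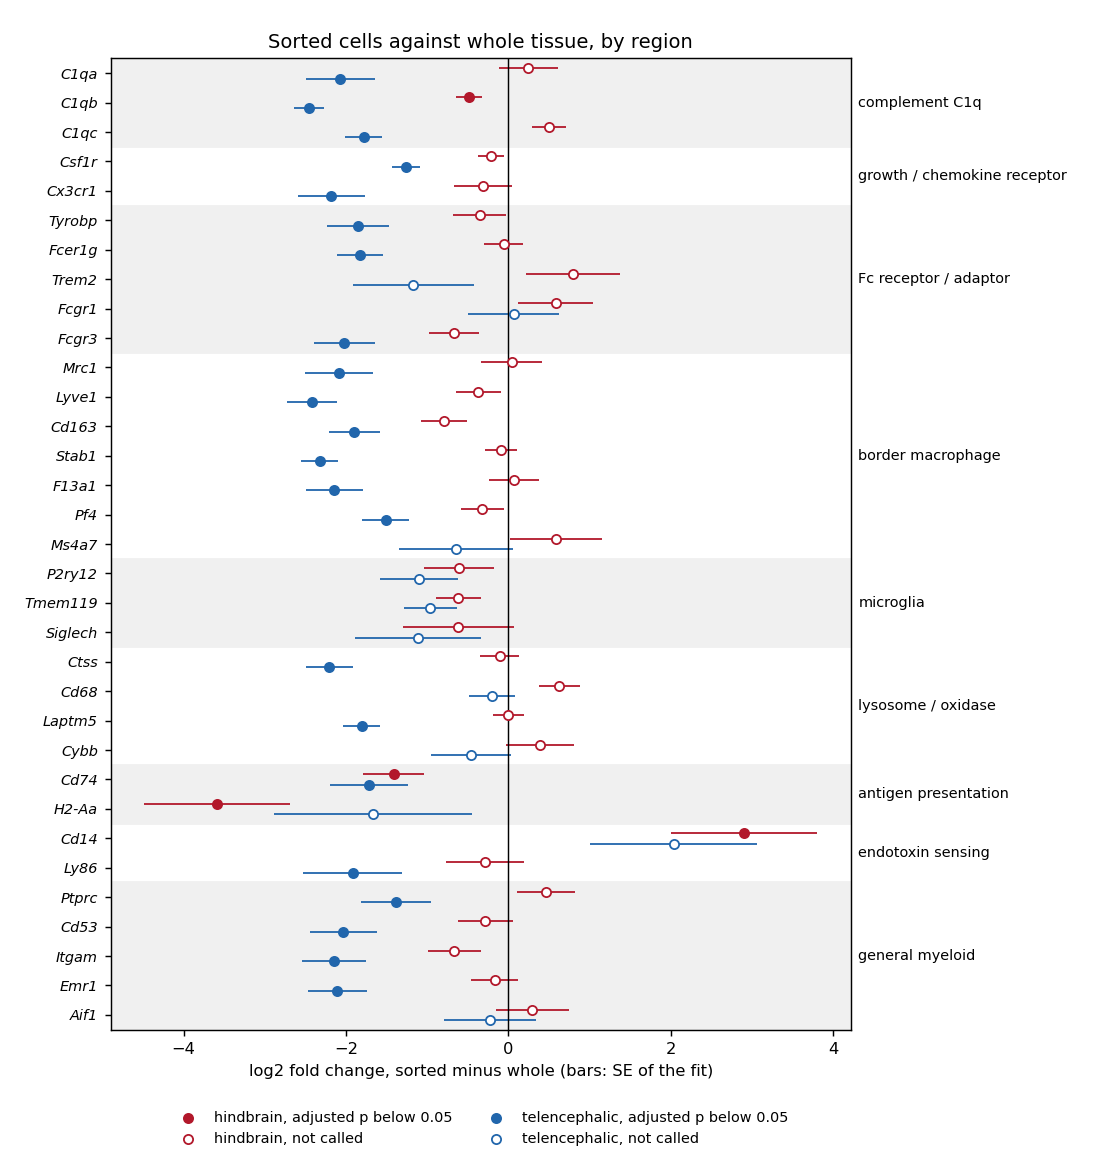
Log2 fold change of sorted over whole for each gene, hindbrain in red and telencephalic in blue, with bars for the SE of the fit and filled points for adjusted p below 0.05. The telencephalic points centre on a median of -1.81 and the hindbrain points on -0.17, with H2-Aa and Cd14 at the hindbrain extremes of -3.59 and 2.90.

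The 3 chains of C1q, which assemble into the recognition unit of the complement pathway, all fell with the telencephalic sort. C1qb had 15.02 and 16.1 CPM in hindbrain sorted cells, 3.10 and 2.85 CPM in telencephalic sorted cells, 21.8 and 21.8 CPM in hindbrain whole tissue and 15.7 and 17.2 CPM in telencephalic whole tissue. C1qc had 20.5 and 23.0 CPM in hindbrain sorted cells, 3.71 and 4.34 CPM in telencephalic sorted cells, 18.55 and 12.1 CPM in hindbrain whole tissue and 14.4 and 13.1 CPM in telencephalic whole tissue. The telencephalic sorted libraries lay below all others for both genes. C1qb fell by 2.45 ± 0.19 (SE) on the log2 scale in telencephalic sorted cells relative to whole tissue (edgeR adjusted p = 1.96e-06). C1qc fell by 1.78 ± 0.23 and C1qa by 2.07 ± 0.43 in that comparison. C1qa had only 31 and 7 counts in the telencephalic sorted libraries, and its change was -3.02 without replicate 1. In the hindbrain C1qb fell by 0.49 ± 0.16 (edgeR adjusted p = 0.0442), while C1qa and C1qc were not called, at 0.24 ± 0.36 and 0.50 ± 0.20. That hindbrain C1qb call was lost in 13 of 16 alternatives (adjusted p from 0.00842 to 1.00), each single library left out among them. The interaction was 1.97 ± 0.24 for C1qb (edgeR adjusted p = 0.00216) and 2.28 ± 0.31 for C1qc (edgeR adjusted p = 0.00324), and both calls held in all 15 alternatives.

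The receptor Csf1r, on which macrophages and microglia depend for survival, had 47.4 and 42.3 CPM in hindbrain sorted cells, 11.8 and 16.7 CPM in telencephalic sorted cells, 48.5 and 55.8 CPM in hindbrain whole tissue and 32.8 and 35.0 CPM in telencephalic whole tissue. Its telencephalic sorted libraries did not overlap with any other group. It fell by 1.26 ± 0.17 in telencephalic sorted cells and was not called in hindbrain sorted cells, at -0.21 ± 0.16. The fractalkine receptor Cx3cr1 fell by 2.18 ± 0.41 in telencephalic sorted cells (edgeR adjusted p = 0.00282). Its hindbrain sorted libraries stood far apart, at 15.5 and 5.21 CPM, against 12.1 and 13.7 CPM in hindbrain whole tissue.

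Fc receptors bind antibody, and Fcer1g and Tyrobp are the adaptors through which these and related receptors signal. Fcer1g had 14.7 and 17.9 CPM in hindbrain sorted cells, 2.99 and 2.54 CPM in telencephalic sorted cells, 15.6 and 18.4 CPM in hindbrain whole tissue and 7.28 and 13 CPM in telencephalic whole tissue. Its telencephalic sorted libraries were the lowest, and the hindbrain groups overlapped. It fell by 1.83 ± 0.28 in telencephalic sorted cells, was at -0.06 ± 0.24 in hindbrain sorted cells, and its interaction was 1.77 ± 0.37 (edgeR adjusted p = 0.0345). Tyrobp and the low-affinity receptor gene Fcgr3 also fell in telencephalic sorted cells, by 1.85 ± 0.38 and 2.02 ± 0.38. The Tyrobp change was -2.60 without telencephalic sorted replicate 1. Fcgr3 has close paralogs, and reads shared among them may be split. The high-affinity receptor Fcgr1 and the lipid sensor Trem2 were not called in either sorted-to-whole comparison. Trem2 stayed between 0.227 and 1.94 CPM in all 8 libraries.

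Of the 7 border macrophage genes, 6 fell with the telencephalic sort and 0 were called in the hindbrain sort. Over all genes, 12.5% were called lower in the telencephalic sort and 22.1% either way in the hindbrain sort. Mrc1, the mannose receptor, had 72.7 and 45.2 CPM in hindbrain sorted cells, 5.71 and 21.1 CPM in telencephalic sorted cells, 56.3 and 58.4 CPM in hindbrain whole tissue and 49.0 and 61.2 CPM in telencephalic whole tissue. Stab1, a scavenger receptor, had 26.3 and 20.4 CPM in hindbrain sorted cells, 4.84 and 7.26 CPM in telencephalic sorted cells, 24.5 and 25.2 CPM in hindbrain whole tissue and 26.3 and 33.6 CPM in telencephalic whole tissue. For both genes the hindbrain sorted and whole libraries overlapped and the telencephalic sorted libraries lay below. Mrc1 fell by 2.08 ± 0.42 in telencephalic sorted cells and Stab1 by 2.32 ± 0.22, while the hindbrain values were 0.04 ± 0.38 and -0.09 ± 0.20, neither called. The Stab1 interaction of 2.24 ± 0.30 (edgeR adjusted p = 0.00273) held in all 15 alternatives. The Mrc1 change with the telencephalic sort was -1.38 without telencephalic sorted replicate 1 and -3.26 without replicate 2. Its interaction, at 2.12 ± 0.56, was not called (edgeR adjusted p = 0.118). Stab1 overlaps Nt5dc2 in the RefSeq annotation, and no strand setting is stated, so reads of that overlap cannot be told apart.

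F13a1, Cd163 and Pf4 fell in the telencephalon as well. F13a1, the coagulation factor XIII A subunit, had 38.3 and 29.1 CPM in hindbrain sorted cells, 4.05 and 12 CPM in telencephalic sorted cells, 34.4 and 29.7 CPM in hindbrain whole tissue and 32.7 and 35.5 CPM in telencephalic whole tissue. It fell by 2.14 ± 0.35 in telencephalic sorted cells and was at 0.07 ± 0.31 in hindbrain sorted cells. Its telencephalic change was -1.51 without telencephalic sorted replicate 1 and -3.07 without replicate 2, and its interaction of 2.21 ± 0.46 (edgeR adjusted p = 0.037) was 1.58 and 3.14 in these settings. Cd163, the haemoglobin scavenger receptor, and Pf4, a platelet chemokine also made by macrophages, fell by 1.90 ± 0.31 and 1.51 ± 0.29 in telencephalic sorted cells and were not called in the hindbrain. The Pf4 change was -2.11 without telencephalic sorted replicate 2. Ms4a7, a membrane protein of border macrophages, was called in neither sort, with 0.189 and 1.67 CPM in the 2 telencephalic sorted libraries. The summed level of the 7 genes was 96.3% of whole tissue in hindbrain sorted cells and 24.2% in telencephalic sorted cells. The 2 telencephalic sorted libraries stood apart, at 13.8% in replicate 1 and 34.7% in replicate 2. Lyve1, the hyaluronan receptor, had 6.33 and 8.29 CPM in hindbrain sorted cells, 2.16 and 4.71 CPM in telencephalic sorted cells, 9.23 and 9.68 CPM in hindbrain whole tissue and 17.9 and 17.7 CPM in telencephalic whole tissue. It was the gene of this list with the lowest hindbrain-to-telencephalic change in whole tissue, at -0.91 ± 0.28, and the telencephalic whole libraries lay above all others. That value was not called (edgeR adjusted p = 0.088), but was called with brain as a block (-0.91, edgeR adjusted p = 0.0174). In sorted cells Lyve1 went the other way, at 1.14 ± 0.30 higher in the hindbrain (edgeR adjusted p = 0.0242), and the interaction was 2.05 ± 0.41 (edgeR adjusted p = 0.0295). The sorted difference was not called without either telencephalic whole library, telencephalic sorted replicate 1 or hindbrain sorted replicate 2. Without telencephalic sorted replicate 2 it was 1.76 and the interaction 2.67.

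The 3 microglial genes were low, and 0 of them were called with the sort in either region. Over all genes, 22.4% were called in the telencephalic sort and 22.1% in the hindbrain sort. For all 3 the telencephalic sorted libraries lay below the whole ones, as for 32.6% of all genes. Tmem119 was near the threshold there (edgeR adjusted p = 0.0534). With library totals as the scale, Tmem119 and P2ry12 were called lower in telencephalic sorted cells. Tmem119, a microglial membrane protein, had 5.93 and 5.03 CPM in hindbrain sorted cells, 1.97 and 1.18 CPM in telencephalic sorted cells, 7.70 and 9.11 CPM in hindbrain whole tissue and 2.87 and 3.46 CPM in telencephalic whole tissue. Its levels were thus ordered by region first, with both hindbrain groups above both telencephalic ones. It was higher in hindbrain than in telencephalic tissue by 1.42 ± 0.30 in whole samples (edgeR adjusted p = 0.0133) and by 1.76 ± 0.31 in sorted cells (edgeR adjusted p = 0.00195). The purine receptor gene P2ry12 and the lectin gene Siglech were called in no comparison with TMM scaling. P2ry12 lay between 0.983 and 2.93 CPM and Siglech between 0.186 and 0.991 CPM over the 8 libraries. P2ry12 lies within the span of Med12l in the RefSeq annotation, so its few reads are uncertain without strand. Over all 3 genes, Tmem119 included, sorted-to-whole values were -0.61 to -0.62 in the hindbrain and -0.96 to -1.11 in the telencephalon.

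The mixture of myeloid transcripts was compared by shares of the reads assigned to the 33 genes, with exact (Clopper-Pearson) 95% intervals that cover counting error only. Border macrophage genes took 38.7% (37.7 to 39.7) and 38.4% (37.3 to 39.4) of these reads in hindbrain whole tissue, against 49.2% (47.8 to 50.6) and 51.0% (49.2 to 52.7) in telencephalic whole tissue. These groups did not overlap. The 3 microglial genes took 2.74% and 3.35% in hindbrain whole tissue against 1.79% and 2.08% in telencephalic whole tissue, and Tmem119 made up the difference. Tmem119 alone took 1.97% (1.70 to 2.26) and 2.34% (2.03 to 2.69) in hindbrain whole tissue, against 0.966% (0.711 to 1.28) and 1.04% (0.716 to 1.45) in telencephalic whole tissue. P2ry12 and Siglech overlapped between the whole-tissue groups. In sorted cells the microglial share was 2.32% and 1.79% in the hindbrain, against 4.97% and 1.95% in the telencephalon, and these groups overlapped. In sorted cells the border share was 42.2% (41.3 to 43.1) and 34.8% (33.8 to 35.7) in the hindbrain, against 31.5% (29.3 to 33.6) and 45.4% (43.1 to 47.6) in the telencephalon. The border shares of the sorted groups overlapped, and the telencephalic sorted libraries differed from each other by more than either region's pair of whole libraries.

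Of the 4 lysosomal and oxidase genes, 2 were called lower with the telencephalic sort and 2 were not called, where 12.5% of all genes were lower. Differences between these genes were not tested. Ctss, the protease cathepsin S, had 17.6 and 12.6 CPM in hindbrain sorted cells, 1.55 and 2.91 CPM in telencephalic sorted cells, 17.0 and 15.6 CPM in hindbrain whole tissue and 10.6 and 9.12 CPM in telencephalic whole tissue. Laptm5, a lysosomal membrane protein of blood cells, had 17.7 and 25.0 CPM in hindbrain sorted cells, 3.55 and 4.47 CPM in telencephalic sorted cells, 23.0 and 19.7 CPM in hindbrain whole tissue and 14.4 and 13.3 CPM in telencephalic whole tissue. Hindbrain sorted and whole libraries overlapped for both, and telencephalic sorted libraries lay below all others. Ctss fell by 2.20 ± 0.29 and Laptm5 by 1.81 ± 0.22 in telencephalic sorted cells, with interactions of 2.10 ± 0.38 (edgeR adjusted p = 0.0156) and 1.81 ± 0.30 (edgeR adjusted p = 0.00888). The lysosomal glycoprotein gene Cd68 had 9.68 and 14.3 CPM in hindbrain sorted cells, 3.89 and 5.02 CPM in telencephalic sorted cells, 7.82 and 7.69 CPM in hindbrain whole tissue and 4.28 and 6.08 CPM in telencephalic whole tissue. It was not called in either sorted-to-whole comparison, at 0.63 ± 0.25 in the hindbrain and -0.21 ± 0.28 in the telencephalon. Cybb, the catalytic subunit of the phagocyte NADPH oxidase, was not called either, at 0.39 ± 0.42 in the hindbrain and -0.46 ± 0.49 in the telencephalon. Its telencephalic sorted libraries stood apart, at 1.40 and 4.59 CPM.

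General leukocyte and macrophage genes repeated the telencephalic loss. The integrin gene Itgam fell by 2.15 ± 0.39, the F4/80 gene Emr1 (now Adgre1) by 2.11 ± 0.36, the tetraspanin gene Cd53 by 2.03 ± 0.42 and the phosphatase gene Ptprc, which encodes CD45, by 1.39 ± 0.43. The Ptprc call was lost without either telencephalic whole library or telencephalic sorted replicate 1, and its change was -2.03 without telencephalic sorted replicate 2. Aif1, which encodes the microglia and macrophage protein IBA1, was not called, at -0.23 ± 0.56. None of these 5 genes was called in the hindbrain sort, against 22.1% of all genes, and their values there ran from -0.67 to 0.46.

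The 2 antigen presentation genes were low in all groups and stood highest in hindbrain whole tissue. H2-Aa, the alpha chain of an MHC class II molecule, had 3 and 5 counts in hindbrain sorted cells, 0 and 4 in telencephalic sorted cells, 47 and 37 in hindbrain whole tissue and 2 and 6 in telencephalic whole tissue. The count of 0 in telencephalic sorted replicate 1 allows up to 0.113 CPM. Hindbrain whole tissue therefore stood above the other 3 groups. H2-Aa passed the filter only through hindbrain whole tissue, so its fitted change there, -3.59 ± 0.90, had to be a fall, and its call is not read as support. Cd74, the invariant chain that escorts class II molecules, had 1.42 and 2.05 CPM in hindbrain sorted cells, 0.340 and 0.620 CPM in telencephalic sorted cells, 4.72 and 4.53 CPM in hindbrain whole tissue and 1.41 and 1.68 CPM in telencephalic whole tissue. Cd74 fell with the sort in both regions, by 1.41 ± 0.38 in the hindbrain (edgeR adjusted p = 0.0185) and by 1.72 ± 0.48 in the telencephalon (edgeR adjusted p = 0.0231). The hindbrain Cd74 call was lost without either hindbrain whole library (adjusted p up to 0.111), and the telencephalic one without either telencephalic whole library or telencephalic sorted replicate 1. Of 7 tested partner genes of this pathway, the hindbrain sort raised 2 and lowered 1, with a median of -0.06. Over all genes it raised 10.2% and lowered 11.9%. H2-DMa, which helps load peptides, rose by 1.55 ± 0.33, with 3.75 and 5.03 CPM in hindbrain sorted cells against 1.65 and 1.32 CPM in hindbrain whole tissue. The maturation marker gene Cd83 rose by 3.46 ± 0.41. H2-Ab1, the beta chain that pairs with H2-Aa, had 0 counts in both hindbrain sorted libraries and 69 and 52 in hindbrain whole tissue. That is at least 23.9-fold lower against a floor of 3 counts per library. With 0 counts there, H2-Ab1 could pass the filter only through other groups, so a hindbrain fall was set in advance. Its fall and bound are not read as support.

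Cd14, the endotoxin co-receptor, was the single gene of the 33 called higher with a sort. It had 4.04 and 13.1 CPM in hindbrain sorted cells, 0.378 and 7.38 CPM in telencephalic sorted cells, 1.33 and 0.944 CPM in hindbrain whole tissue and 0.795 and 1.05 CPM in telencephalic whole tissue. Replicate 2 was the higher sorted library in both regions, and in the telencephalon replicate 1 lay below whole tissue. The hindbrain change was 2.90 ± 0.90 (edgeR adjusted p = 0.0367) and the telencephalic one, at 2.04 ± 1.03, was not called (edgeR adjusted p = 0.178). The hindbrain call was lost in 7 of 16 alternatives, including without hindbrain sorted replicate 2 and without any one whole library (adjusted p from 7.55e-05 to 0.181). Ly86, which encodes the Toll-like receptor partner MD-1, fell by 1.92 ± 0.61 in telencephalic sorted cells (edgeR adjusted p = 0.0389), a call lost without any one of 6 libraries.

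The regional comparison in sorted cells, hindbrain minus telencephalic, called 29 of the 33 genes higher and 0 lower, where 9.06% of all genes were higher and 6.12% lower, 15.2% in all. The median change was 2.11, against -0.0015 over all genes, and all 33 values were positive, where 7808 of all 15698 genes were. The 4 genes not called were P2ry12, Siglech, H2-Aa and Cd14. With brain as a block Cd14 was called as well (1.73, edgeR adjusted p = 0.0179). Ctss differed most, by 2.81 ± 0.28 (edgeR adjusted p = 3.24e-05), followed by Emr1 at 2.72 ± 0.35 and Cd53 at 2.61 ± 0.40. The Cd53 difference was 1.95 without hindbrain sorted replicate 1. Libraries of the 2 regions did not overlap for 30 of the 33 genes, with the hindbrain above in each, where 26.1% of all genes had hindbrain sorted libraries above telencephalic ones and 25.8% below. The count of called genes was 19 without telencephalic sorted replicate 1, the library with the lowest summed level.

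In whole tissue, hindbrain minus telencephalic called 3 of the 33 genes higher and 0 lower, where 3.34% of all genes were higher and 2.45% lower, 5.79% in all. They were Tmem119, Cd74 at 1.59 ± 0.40 (edgeR adjusted p = 0.0366) and Csf1r at 0.62 ± 0.16 (edgeR adjusted p = 0.0457). The median change was 0.60, against 0.01 over all genes, 30 of 33 values were positive, and 16 had an unadjusted p below 0.05. Over all 15698 genes, 7946 values were positive and 2583 had an unadjusted p below 0.05. Hindbrain libraries lay above telencephalic ones for 22 genes and below for 2 genes, Lyve1 and Stab1, where 26.8% and 24.8% of all genes did so. With brain as a block 7 genes were called, the added ones being Cybb (1.02, edgeR adjusted p = 0.0276), Fcer1g (0.80, edgeR adjusted p = 0.0349), Laptm5 (0.62, edgeR adjusted p = 0.0354) and Lyve1, the one lower gene. The calls of Tmem119, Cd74 and Csf1r were all lost without either telencephalic whole library or hindbrain whole replicate 2. Those of Cd74 and Csf1r were also lost without hindbrain whole replicate 1.

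**Figure D3:**
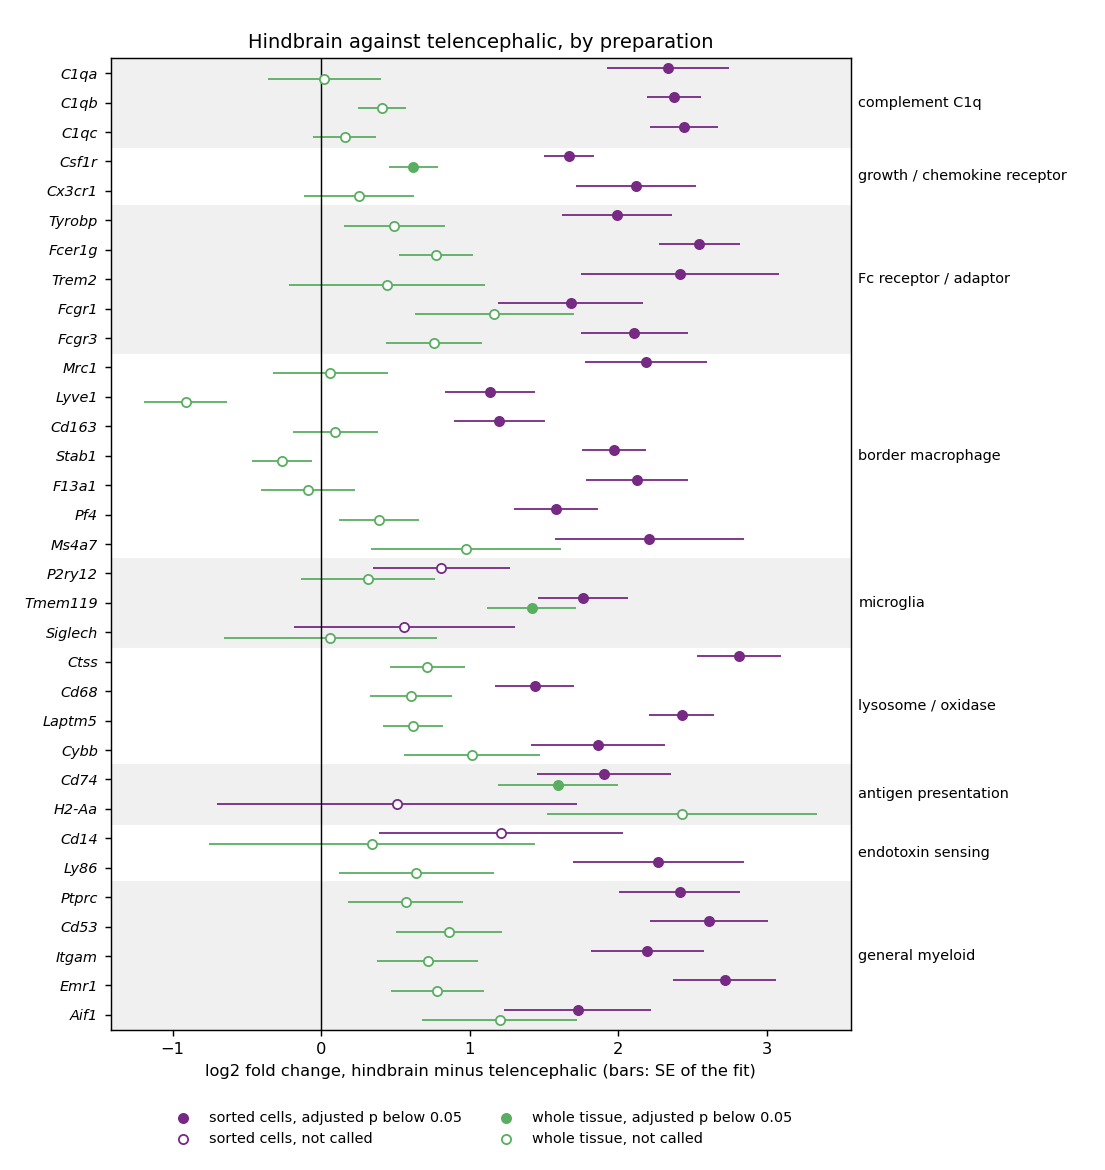
Log2 fold change of hindbrain over telencephalic for each gene, sorted cells in purple and whole tissue in green, with bars for the SE of the fit and filled points for adjusted p below 0.05. All 33 sorted points lie above 0 with a median of 2.11, while the whole-tissue median is 0.60 and Lyve1, Stab1 and F13a1 lie below 0.

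Other genes of the myeloid programme, 66 in 6 lists, were read beside the 33. Of the 62 tested, the telencephalic sort lowered 20 and raised 5, which is 40.3% called against 22.4% of all genes, with a median of -0.69. The hindbrain sort lowered 6 and raised 7, with a median of -0.05, and its 21.0% called is near the 22.1% of all genes. Sorted hindbrain cells were higher than sorted telencephalic cells for 27 and lower for 5, with a median of 1.04 and 51.6% called against 15.2% of all genes. The interaction called 3 higher and 0 lower, 4.84% against 1.34% of all genes. Those 3 were Axl, a receptor for dying cells, at 1.06 ± 0.18, the lysozyme gene Lyz2 at 1.78 ± 0.34 and the pore-forming protein gene Mpeg1 at 1.86 ± 0.38. Whole tissue had 2 genes higher in the hindbrain and 2 lower, and this 6.45% is near the 5.79% of all genes. Sfpi1, the gene of PU.1, had 3.46 and 4.59 CPM in hindbrain sorted cells, 0.794 and 0.992 CPM in telencephalic sorted cells, 4.39 and 4.15 CPM in hindbrain whole tissue and 2.51 and 2.93 CPM in telencephalic whole tissue. It fell by 1.61 ± 0.37 in telencephalic sorted cells (edgeR adjusted p = 0.00816) and was not called in the hindbrain, at -0.09 ± 0.31, with an uncalled interaction of 1.52 ± 0.48 (edgeR adjusted p = 0.23).

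Of 5 ligands of myeloid receptors, the telencephalic sort raised 2 and lowered 1, and the hindbrain sort raised 1 and lowered 0. Over all genes, 22.4% were called in the telencephalic sort and 22.1% in the hindbrain sort. Csf1, a ligand of Csf1r, had 31.1 and 35.0 CPM in hindbrain sorted cells, 52.0 and 44.4 CPM in telencephalic sorted cells, 31.9 and 38.5 CPM in hindbrain whole tissue and 42.3 and 42.7 CPM in telencephalic whole tissue. It was lower in hindbrain than in telencephalic sorted cells, at -0.55 ± 0.14 (edgeR adjusted p = 0.0216), where Csf1r was higher by 1.67 ± 0.17. Cx3cl1, the fractalkine ligand of Cx3cr1, rose with the sort in both regions, by 0.41 ± 0.12 in the hindbrain (edgeR adjusted p = 0.0318) and 0.45 ± 0.13 in the telencephalon (edgeR adjusted p = 0.0231).

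Markers of other cell types were read across the same sort. Of 10 choroid epithelial markers, 3 rose in the hindbrain and 5 in the telencephalon, and 0 fell. Over all genes, 10.2% rose in the hindbrain and 9.88% in the telencephalon. Total counts ranged from 8849053 to 31613434 per library. Ttr rose with the sort by 0.40 ± 0.13 in the hindbrain and 0.59 ± 0.13 in the telencephalon, and stood at 158987 and 210675 CPM in hindbrain sorted cells against 281816 and 257038 CPM in telencephalic sorted cells. The ribosomal precursor Rn45s took 6.49% and 11.3% of counts in hindbrain sorted cells, 13.9% and 11.6% in telencephalic sorted cells and 4.07% to 4.40% in whole tissue. All 10 endothelial markers fell with the sort in both regions, against 11.9% of all genes in the hindbrain and 12.5% in the telencephalon. Their summed level was 24.1% of whole tissue in the hindbrain and 19.4% in the telencephalon. Mural markers, of pericytes and smooth muscle, summed to 53.0% in the hindbrain and 14.2% in the telencephalon, and 4 of 8 had a called, positive interaction. Mesenchymal markers summed to 92.8% in the hindbrain and 65.8% in the telencephalon, with 2 of 9 tested genes called in the interaction. Over all genes the interaction called 1.34%. The part of these other cells, of Rn45s and of Ttr in the macrophage result was not tested.

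**Figure D4:**
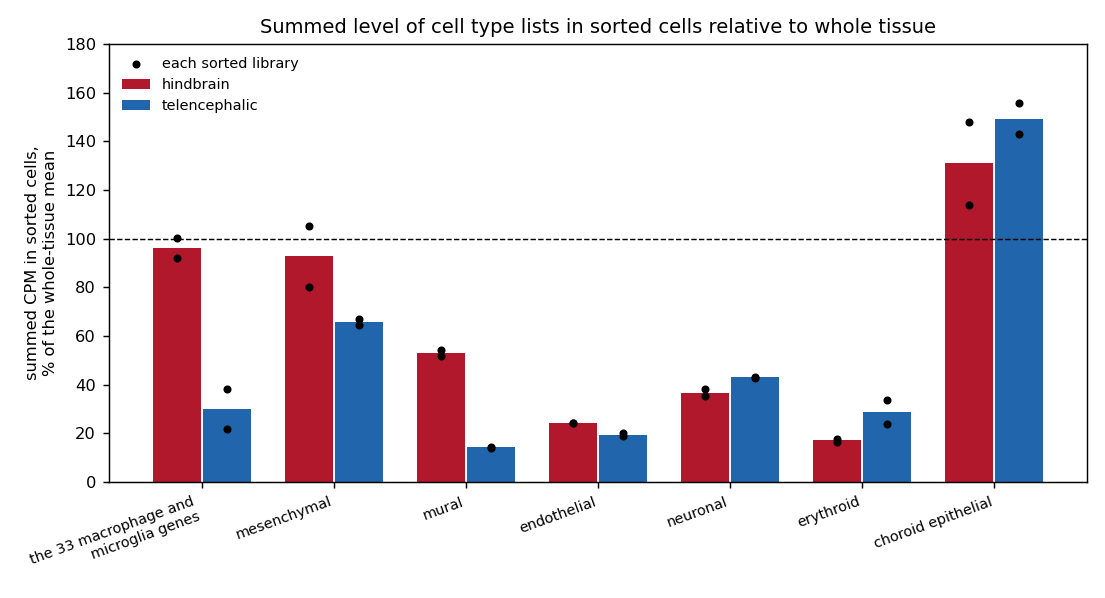
Summed CPM of each marker list in sorted cells as a percentage of the whole-tissue mean of the same region, with bars for the mean of 2 libraries, points for each sorted library and a dashed line at 100%. The 33 macrophage and microglia genes stand at 96.0% in the hindbrain and 30.1% in the telencephalon, beside endothelial markers at 24.1% and 19.4%; the choroid epithelial bar is mostly Ttr.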

How the data were processed

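The authors deposited raw read counts, as whole numbers for each gene symbol. Tools listed in the submitters' processing notes are HTSeq, Bowtie2 2.0.5, TopHat2 2.0.4, CASAVA 1.8.2 and DESeq 1, with mm9 as the build. For the annotation and the strand setting, the sources used here give nothing. Per the labels' protocols, cDNA was pre-amplified before library construction, and no molecular identifiers are mentioned. Intervals and floors (3 counts) therefore cover counting error only. Total counts ranged from 8849053 to 31613434 per library. Genes were kept by filterByExpr (minimum count 10, minimum total 15), which left 15698. TMM scaling and a quasi-likelihood model of 4 group means over all 8 libraries were run in edgeR 4.0.16 (R 4.3.3). P-values were adjusted over all tested genes. The script was tested on simulated data. DESeq2 1.42.0 was an alternative test. All 33 genes are named, with at most 3 called genes of each other list per comparison. The members and lists were chosen with earlier results of these data known. Same-numbered libraries of the 2 regions come from the same brains per the series' design text. Their deviations from the group means correlated at 0.19 in whole tissue and 0.14 in sorted cells. Pooling of embryos is not stated, so p-values measure the spread between these libraries. RefSeq sequences and overlaps come from GRCm38.p6.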

Additional observations from a re-analysis of the deposited data

Results flagged for a closer look

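For 8 of the 33 genes the sorted-to-whole effect differed between the regions by the interaction test (edgeR, adjusted p below 0.05). The hindbrain log2 change exceeded the telencephalic one by 1.97 for C1qb, 2.28 for C1qc, 1.77 for Fcer1g, 2.05 for Lyve1, 2.24 for Stab1, 2.21 for F13a1, 2.10 for Ctss and 1.81 for Laptm5. All 8 were among the genes called lower in telencephalic sorted cells, and C1qb alone of them was called in hindbrain sorted cells. The calls of C1qb, C1qc and Stab1 held in all 15 alternatives, and those of the other 5 were lost in 3 or more. Values of mural and mesenchymal markers that moved the same way are given above, and their part in the result was not tested. Leaving out telencephalic sorted replicate 1 or 2 moved F13a1 to 1.58 or 3.14, and leaving out replicate 2 moved Lyve1 to 2.67. With 2 libraries per group, no single library was tested as an outlier.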

How the results depend on the processing

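Of the called genes, 19 of 22 in the telencephalic sort and 19 of 29 in the sorted regional comparison were called in all 16 alternatives, as were 0 of 3 in the whole-tissue and 0 of 4 in the hindbrain sort comparison, and 3 of 8 interactions were called in all 15. No called gene changed sign. Leaving out 1 library gave 0 to 5 called genes of the 33 in whole tissue, 19 to 28 in sorted cells, 19 to 23 for the telencephalic sort, 0 to 7 for the hindbrain sort and 3 to 14 for the interaction. The same settings gave 316 to 1341, 1051 to 3253, 1519 to 4501, 1691 to 3873 and 58 to 473 called genes over the whole table. The lone library left in a group was assumed to vary like the others. Against a fold change of 1.5 the numbers of the 33 were 0 (whole tissue), 1 (hindbrain sort) and 4 (interaction), and those over all genes 280, 788 (sorted cells), 1034 (telencephalic sort), 954 and 92. With the 4 libraries of a comparison alone they were 10 and 1587 in whole tissue, 1460 of all genes in sorted cells and 2236 in the hindbrain sort. Without the low-count filter 5 of the 33 were called in whole tissue and 16 in the interaction (441 over all genes). DESeq2 called 2 of the 33 in the hindbrain sort and 335 interactions over all genes. The replicate block of brains gave 7 of the 33 in whole tissue and 337 interactions over all genes. As a block across preparations, where numbers are not stated to pair samples (correlations of -0.03 and -0.06), the replicate number left 22 and 3 of the 33 called. With library totals as the scale the median of all genes moved to 0.20 in sorted cells, -0.30 in the telencephalic sort and -0.19 in the hindbrain sort. Higher calls over all genes were then 70.7% instead of 57.6% in whole tissue, 83.5% instead of 59.7% in sorted cells, 10.5% instead of 44.1% in the telencephalic sort and 20.1% instead of 46.3% in the hindbrain sort. The cause of these shifts was not tested. C1qa, Trem2, Fcgr1, Ms4a7, Siglech, Cd74, H2-Aa, Ly86 and Aif1 had under 10 counts in 1 or more libraries, which limits their precision.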

Other observations

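A few immune genes outside the 33 were lower in sorted than in whole libraries of both regions. Ccr2, the chemokine receptor of inflammatory monocytes, had 1 and 2 counts in hindbrain sorted cells, 0 and 2 in telencephalic sorted cells, 91 and 73 in hindbrain whole tissue and 20 and 10 in telencephalic whole tissue. With so few sorted counts, Ccr2 could pass the filter only through whole tissue, so a fall was set in advance. Its calls as lower in sorted cells of the hindbrain (edgeR adjusted p = 0.000198) and of the telencephalon (edgeR adjusted p = 0.00375) are not read as support. The few sorted counts give no firm fold. Coro1a, an actin regulator of leukocytes, fell by 2.39 ± 0.37 in the hindbrain and by 3.11 ± 0.44 in the telencephalon. Cd83, a maturation marker of dendritic cells, rose instead, by 3.46 ± 0.41 in the hindbrain and 1.91 ± 0.44 in the telencephalon. All 7 tested neutrophil markers fell in hindbrain sorted cells, against 11.9% of all genes, with a median of -2.37. In telencephalic sorted cells 3 of them rose, against 9.88% of all genes. The 7 were higher in hindbrain than in telencephalic whole tissue, against 3.34% of all genes, with a median of 4.66. The 8 listed markers summed to 1525 and 1033 counts in hindbrain whole tissue and 42 and 19 in telencephalic whole tissue. Sorted cells had 375 and 203 in the hindbrain and 394 and 75 in the telencephalon. Markers this low elsewhere may have passed the filter through hindbrain whole tissue alone, so these calls are not read as support.

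Sorted replicate 2 was the higher of the pair in both regions for 14 of the 33 genes, Cd14, Cybb, Ptprc and Lyve1 among them. It was the lower one in both for 5 genes, Tyrobp, Cd163, Tmem119, Siglech and Cd53, and the remaining 14 differed in direction.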
